A study of Ovis aries with 12 samples.

Results

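The genes described here were those with a lower read level in the high-fertility than in the low-fertility Co libraries of sheep, with no such separation in the T libraries. They were chosen by measured values, the TMM-scaled CPM (a gene's read count relative to library size, the standard unit of sequencing counts, after adjustment for library composition). A gene was taken if it averaged 2 CPM or more over the 6 Co libraries, if its lowest Co-L library was at least 1.5 times its highest Co-H library, and if its T-H and T-L ranges overlapped. Of 24616 genes counted, 14405 had a summed count of 120 or more and were tested, 12486 of these averaged 2 CPM or more over Co, and 80 met all the conditions. The files give cattle gene identifiers and do not pair them with gene names, and 0 identifiers matched the sheep gene table used here. Genes are therefore given by identifier, at most 2 for each aspect, and by rank or count otherwise. No function and no sequence is given for them.

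RNA sequencing was done on 12 libraries of flash-frozen sheep tissue in 4 groups of 3. Co-H libraries came from high-fertility sheep, with Co-H 1 and Co-H 2 labelled ovary and Co-H 3 labelled corpus luteum. All Co-L libraries were labelled ovary of low-fertility sheep. T-H and T-L libraries were labelled endometrium of high-fertility and low-fertility sheep. The file headers call the Co libraries CL and the T libraries Endo, and the design text speaks of pooled samples. The sources used here give no breed, age, stage of the cycle or treatment. With no gene names, the tissue labels could not be checked against marker genes. Nothing says whether the 3 libraries of a group are from separate animals, so a p-value here speaks of the spread among these libraries, which may be technical.

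The ovary carries follicles and, after ovulation, the corpus luteum, a temporary gland built from the cells of the ruptured follicle. The corpus luteum secretes progesterone, which prepares the endometrium, the lining of the uterus, to receive an embryo. In ruminants the endometrium in turn releases the prostaglandin that ends the life of the corpus luteum when no embryo is present. A whole ovary and a dissected corpus luteum hold different mixtures of cells, and in bulk tissue fewer cells of a type and less RNA per cell cannot be told apart.

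Library totals were 12665680 to 17852552 reads in Co and 9627378 to 13934369 in T. Co-H 3 differed from the other Co libraries in its label, corpus luteum. By its counts it was close to Co-H 2, with a chi-square per degree of freedom of 19.4, against 46.8 and 48.5 for the pairs with Co-H 1. The pairs with Co-L 3 stood at 93.7 and 81.1, against 47.5 for Co-L 1 and Co-L 2, and those with T-H 1 at 145 and 121, against 24.7 for T-H 2 and T-H 3. In Co-L 3, 20 tested genes with a Co mean of 2 CPM or more had reads while the other 5 Co libraries had 0, and the same count was 0 for each of the other 11 libraries within its own tissue. TMM multiplied library size by 0.849, 0.979 and 1.00 in the Co-H libraries and by 0.869, 0.748 and 0.768 in the Co-L libraries.

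The 80 genes were of different kinds. In 48 of them (60%) every Co-L library held at least 10 reads of the gene, the lowest being 29, and the level was lower in all 3 Co-H libraries. In 8 genes the lowest Co-L library held 1 to 8 reads, and in 24 genes it held 0. These 24 genes had 0 reads in all 3 Co-H libraries too, so they met the 1.5-fold condition as 0 against 0. The minimum of 10 reads was chosen after the values were seen. For the 32 genes of the last kinds the level in Co-L rested on Co-L 3, which held over 80% of the summed Co-L level, in all but 1 case. For those 31 genes the lower level in Co-H thus lay almost wholly in the comparison with 1 of the 3 Co-L libraries. In 13 of the 80 genes all 6 T libraries were at 0, so the T ranges overlapped as 0 against 0. The overlap in T was a condition of choice, and the difference between the fertility contrasts of the tissues was not tested for these genes.

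**Figure D1:**
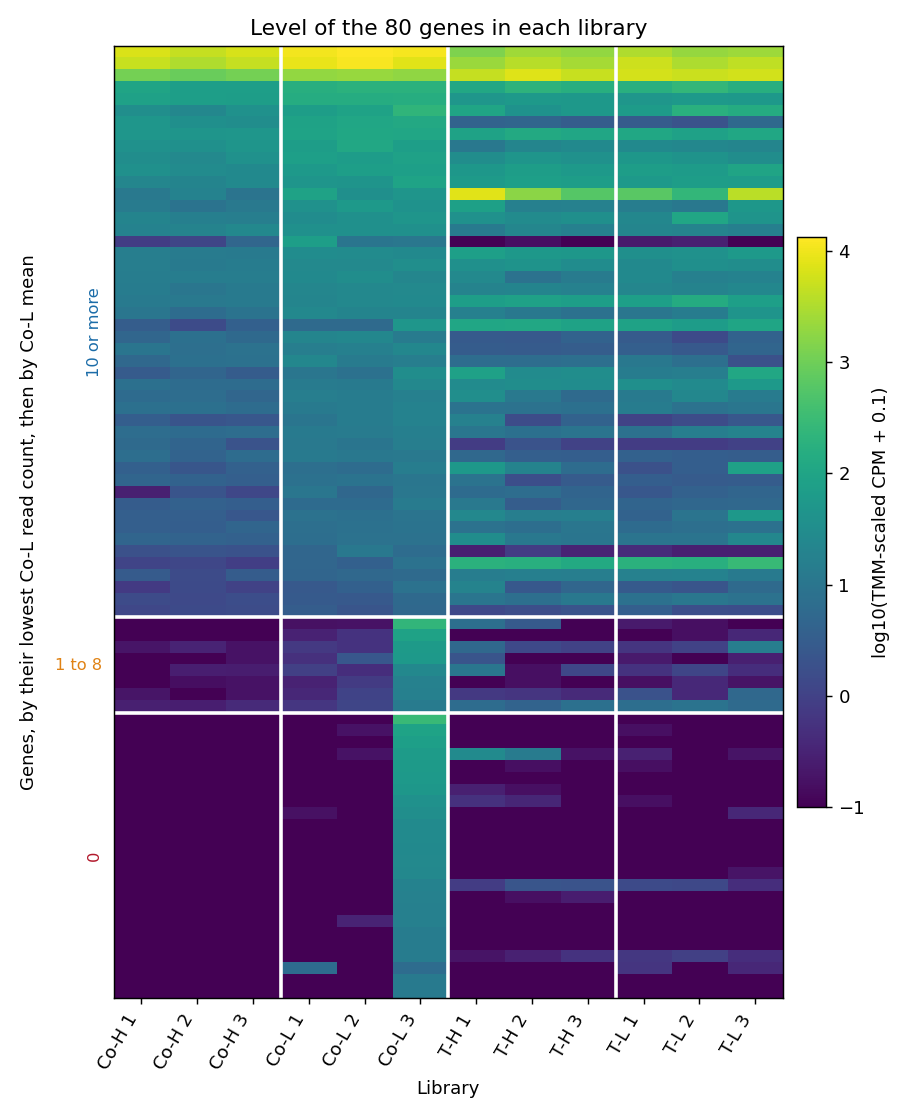
Heat map of log10(TMM-scaled CPM + 0.1) for the 80 genes (rows) in the 12 libraries (columns, in the order Co-H, Co-L, T-H, T-L), in blocks by the lowest Co-L read count (10 or more, 1 to 8, and 0). The 48 genes of the upper block are present in all 3 Co-L libraries, whereas in the lower blocks, with 8 and 24 genes, the signal in Co lies in the column of Co-L 3 for all but 1 gene.

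Most of the genes were of low to moderate abundance. The mean in Co-L was under 10 CPM for 32 genes, 10 to under 100 CPM for 40 and 100 CPM or more for 8, of which the top 3 averaged 2008 to 11738 CPM. The median of the Co-L means was 16.1 CPM over the 80 genes and 24.1 CPM over the 12486 genes with a Co mean of 2 CPM or more. Together the 80 genes took 1.11% ± 0.18 of the reads in Co-H, 2.02% ± 0.14 in Co-L, 1.73% ± 0.32 in T-H and 1.86% ± 0.32 in T-L (SD, n = 3 each). Nearly all of this came from the 48 genes with reads throughout Co-L, which took 1.11% ± 0.18 in Co-H and 1.98% ± 0.20 in Co-L. These shares rest mostly on a few genes. In Co-L 1 the top 3 held 157108, 130845 and 28898 of 16745436 reads. In T-H 1 they held 15261, 25494 and 51724 of 10964267 reads, and ENSBTAG00000004322 held 88798.

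ENSBTAG00000014835 was the most abundant of the 80. It stood at 6697, 4658 and 6361 CPM in Co-H, at 10803, 13206 and 11206 CPM in Co-L, at 1359, 2435 and 1960 CPM in T-H, and at 3209, 2010 and 2317 CPM in T-L. All Co libraries lay above all T libraries, and the Co-L libraries were the highest of all. ENSBTAG00000013103 came next, at 4901, 3178 and 4623 CPM in Co-H and 8997, 11964 and 7911 CPM in Co-L. Its T libraries, at 2270, 3746 and 2663 CPM in T-H and 5461, 3106 and 4299 CPM in T-L, covered much the same range as Co-H. In both genes Co-H 2 was the lowest Co library and Co-L 2 the highest. The third most abundant gene stood at 1050 CPM in Co-H and 2008 CPM in Co-L and at 5699 CPM in T-H and 5710 CPM in T-L (means). It was lower in Co than in T by a log2 difference of −1.97 (edgeR adjusted p = 5.5e-07).

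**Figure D2:**
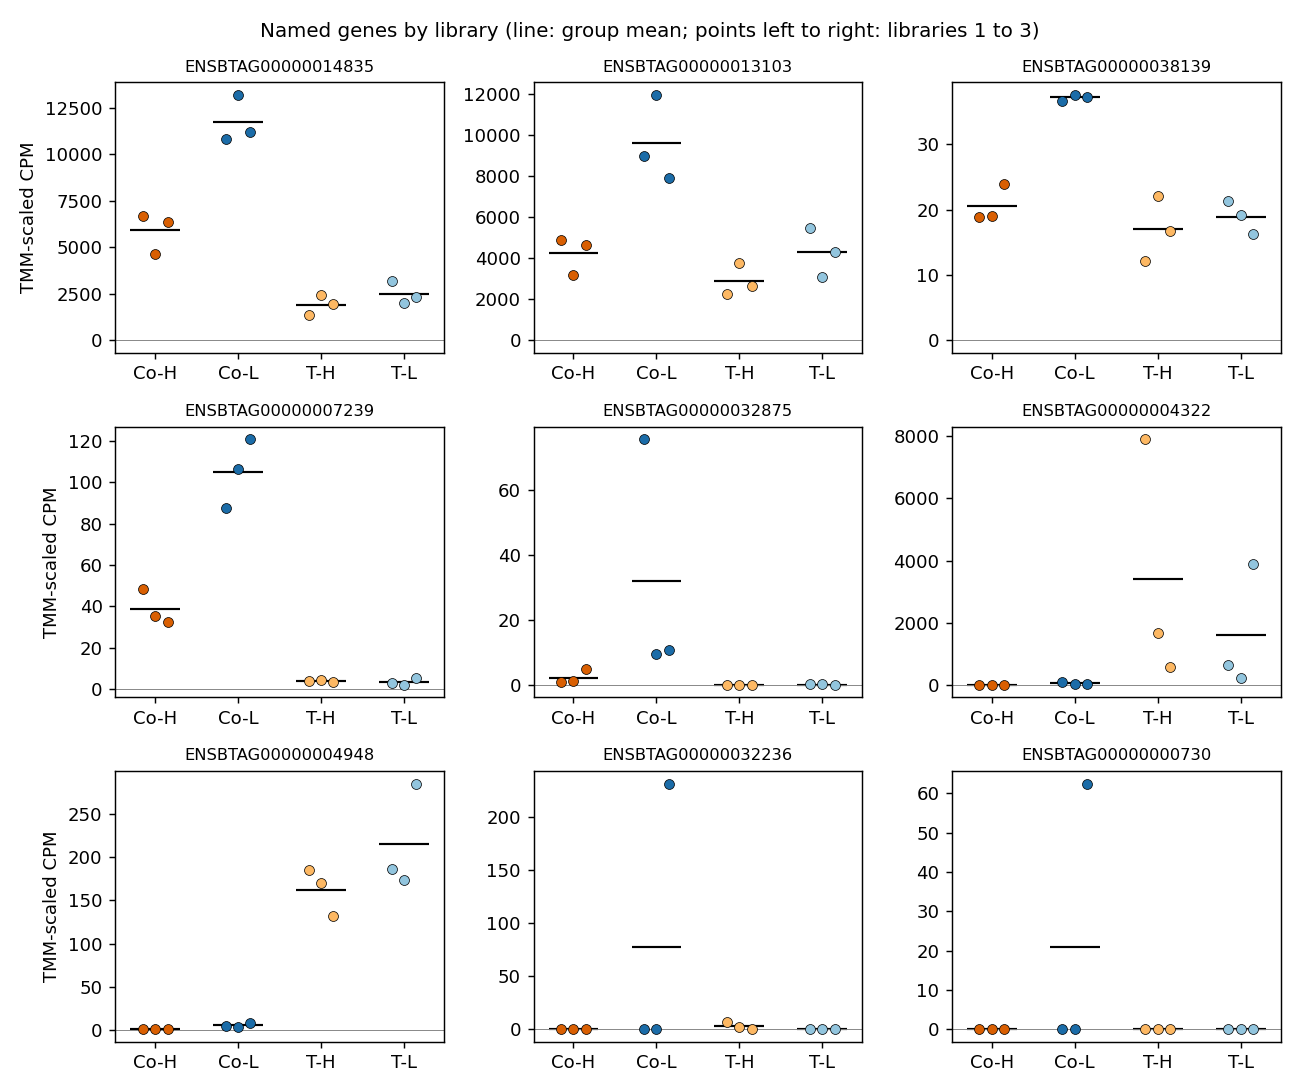
Level of 9 of the 80 genes in each library, with TMM-scaled CPM on the y axis of each panel and the groups Co-H, Co-L, T-H and T-L on the x axis. Points are the 3 libraries of a group and lines are group means. In the first 4 panels all 3 Co-L libraries hold a high level, in ENSBTAG00000032875 Co-L 1 stands alone at 75.8 CPM, and in the last 2 panels Co-L 3 stands alone at 232 and 62.5 CPM.

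In the 48 genes with reads in every Co-L library the Co-H mean was 0.413 times the Co-L mean in the median gene, and between 0.0692 and 0.554 times over all of them. The lowest Co-L library exceeded the highest Co-H library by 1.70 times in the median gene and by at most 3.15 times. These values follow from the choice of the genes and carry no test. The highest Co-H library was Co-H 1 in 24 of the 48, Co-H 3 in 15 and Co-H 2 in 9. Among the 12486 genes Co-H 1 was the highest Co-H library in 49.4%. In the edgeR fit over all genes 30 of the 80 had a Co-H level called below that of Co-L at an adjusted p under 0.05, 28 of them among the 48, against 2.49% of all 14405 genes. Nothing is read from that count, since the same contrast chose the genes.

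The condition of 1.5 times fell between genes of nearly equal gap. Just inside, ENSBTAG00000014554 stood at 4.56, 4.18 and 3.86 CPM in Co-H and 6.88, 8.34 and 8.58 CPM in Co-L, a lowest Co-L library 1.51 times the highest Co-H library. Just outside, ENSBTAG00000002107 stood at 36.6, 36.4 and 36.2 CPM in Co-H and 60.2, 54.7 and 77.1 CPM in Co-L, a lowest Co-L library 1.496 times the highest Co-H library. With a gap of 1.3 times 202 genes were found, and with a gap of 2 times 38. The number depended on the scaling as well. With library totals left unadjusted 47 genes met the rule, 45 of them among the 80, and 19 of the 48 did. The median log2 difference of Co-H from Co-L over the 12486 genes was then 0.18, against −0.06 with TMM. All 48 genes still had every Co-L library above every Co-H library with unadjusted totals, by at least 1.15 times, as did 6.66% of the 12486 genes.

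Single libraries moved the membership. Without Co-L 3, 86 genes met the rule, 41 of them among the 80. Without Co-L 1 the number was 278, without Co-L 2 it was 159, without Co-H 1 it was 262, and without Co-H 3, the library labelled corpus luteum, it was 142. All 80 genes were among the 142. Leaving out a Co library loosens the 1.5-fold condition, apart from changes in scaling and in the Co mean. The larger numbers, and the keeping of all 80 genes without Co-H 3, follow in part from that.

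Within Co-L the values over all 80 genes follow in part from the rule, since the 24 genes at 0 in a Co-L library could reach the minimum mean only through the remaining Co-L libraries. They are given as a description. The ratio of the highest to the lowest Co-L library had a median of 2.33 over the 80 genes, where genes at 0 in a Co-L library count as higher than any number, and 1.40 over the 12486 genes. It was 2 or more in 46 of the 80 (57.5%) and in 18.1% of the 12486. Co-L 3 was the highest Co-L library in 63 of the 80 genes (78.8%), Co-L 2 in 11 and Co-L 1 in 6. Over the 12486 genes the shares were 38.1% for Co-L 3, 27.7% for Co-L 2 and 34.2% for Co-L 1. Co-L 3 held over 80% of the summed Co-L level in 32 of the 80 genes and in 179 of the 12486. What set Co-L 3 apart was not tested.

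**Figure D3:**
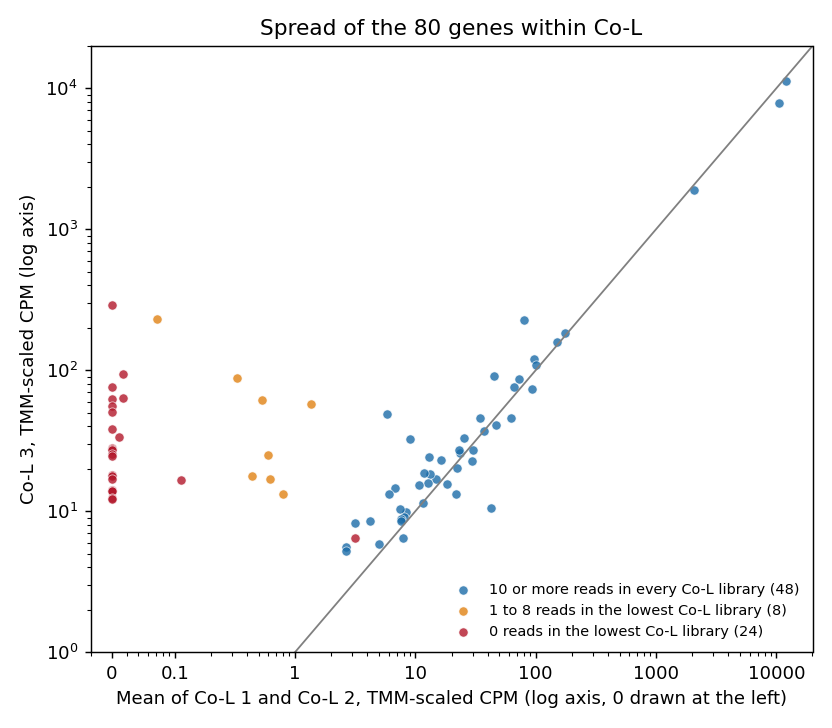
Level in Co-L 3 (y axis) against the mean of Co-L 1 and Co-L 2 (x axis), both in TMM-scaled CPM on log axes, for the 80 genes, coloured by the lowest Co-L read count, with the line of equal levels. The 48 genes with 10 or more reads in every Co-L library lie mostly near the line, with some above it and some below it. The others, apart from 1 gene near 6 CPM in Co-L 3, lie far to the left of it.

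The 48 genes with reads throughout Co-L were much less spread, which follows in part from the minimum of reads that set them apart. Their ratio of highest to lowest Co-L library had a median of 1.45, against 1.39 over the 12230 genes with a Co mean of 2 CPM or more and the same minimum of reads. It was under 1.5 in 27 of the 48 and 2 or more in 14 (29.2%), against 16.5% of the 12230. The coefficient of variation in Co-L had a median of 19.9% over the 48. The tightest was ENSBTAG00000038139, at 18.9, 19.0 and 23.9 CPM in Co-H and 36.6, 37.6 and 37.3 CPM in Co-L. Its T libraries stood at 12.2, 22.1 and 16.7 CPM in T-H and 21.3, 19.2 and 16.3 CPM in T-L, in part within the range of Co-H. Their mean, 18.0 CPM, lay below every Co-H library. The gene was called higher in Co, by 0.62 on the log2 scale (edgeR adjusted p = 0.0026). Co-L 3 was the highest Co-L library in 31 of the 48 genes (64.6%), against 37.5% of the 12230. Within Co-H the ratio of highest to lowest library had a median of 1.39 over the 48.

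Of the 24 genes with 0 reads in a Co-L library, 19 had reads in Co-L 3 and in no other Co library. Their levels in Co-L 3 were 12.3 to 289 CPM with a median of 25.4 CPM, from 126 to 2964 reads, so they were well above counting error there. A total of 3 reads over the 3 Co-H libraries, the limit that a count of 0 allows, corresponds to 0.0733 CPM. Of the 27 genes among the 12486 with 0 reads in all Co-H libraries, 26 were among the 80. This follows from the rule, since a gene at 0 in all Co-H libraries meets the 1.5-fold condition at any Co-L level. Only the overlap in T could leave it out. Another 4 of the 24 had 1 to 3 reads in Co-L 1 or Co-L 2, and the remaining gene had 91 reads in Co-L 1, 66 in Co-L 3 and 0 in Co-L 2. First by identifier among those with the widest spread was ENSBTAG00000000730, which was at 0 in all Co-H libraries and at 0, 0 and 62.5 CPM in the Co-L libraries, with 1 read each in T-H 2 and T-L 1. In T 13 of the 24 genes had 0 reads, 6 had 1 to 3 reads over the 6 libraries and 5 had more. These 24 genes were thus mostly at or near 0 in T. Their 0 reads in Co-H follow from the rule, given 0 in a Co-L library.

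The 8 genes with 1 to 8 reads in their lowest Co-L library had the same shape. Co-L 3 held 89.2% to 99.9% of their summed Co-L level, and their Co-H means were 0 to 0.224 CPM. An example is ENSBTAG00000032236, which had 0 reads in Co-H and stood at 0.0688, 0.0751 and 232 CPM in Co-L, where the first values are 1 read each and cannot be told from the 0 in Co-H at this depth. In T it stood at 7.39, 2.69 and 0 CPM in T-H and 0.129, 0.0585 and 0 CPM in T-L. It was thus seen in T-H 1 and T-H 2 at levels far above Co-L 1 and Co-L 2.

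Tissue bias was the contrast that the choice did not use, apart from the minimum mean in Co, and it was tested as Co over T with edgeR's quasi-likelihood test, adjusted by Benjamini-Hochberg over 14405 genes. The fitted log2 difference was the average of the log2 levels of Co-H and Co-L minus the average of those of T-H and T-L. It can therefore differ from the ratio of the Co and T means, most of all for genes at 0 in a group. Of the 80 genes 12 (15%) were called higher in Co and 22 (27.5%) lower in Co, and 46 did not pass. Over all tested genes 32.9% were called higher in Co and 31.6% lower. Over the 12486 genes that shared the minimum mean in Co 36.9% were called higher and 26.6% lower. A set test was not made, and the share called lower in Co is close to that background. The share called higher is below it, and none of the 24 genes at 0 in a Co-L library was called. For most of these 24 the standard error of the log2 difference was too large for any call. The absence of a call thus says nothing on their tissue bias, and it lowers the shares called among the 80. The median log2 difference of Co from T was 0.46 over the 80, against 0.11 over the 12486. That median turned on the genes at 0 outside Co-L 3. Without Co-L 3 it was −0.68 over the 54 genes still tested.

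The tissue calls fell almost wholly among the 48 genes with reads throughout Co-L. Of these 12 were called higher in Co (25%), against 36.9% of the 12486 genes, and 21 lower (43.8%), against 26.6%. The other 15 did not pass. The 12486 genes were not held to 10 reads in every Co-L library, and no set test was made. The median log2 difference of the 48 was −0.49. Without Co-L 3 the calls among the 48 were 12 higher and 23 lower. All 6 T libraries lay below all Co-H libraries in 9 of the 48, each called higher in Co, against 29.8% of the 12486 genes. They lay above all Co-L libraries in 10 of the 48, each called lower in Co, against 23.3% of the 12486 genes. The rule set a gap between Co-H and Co-L in the 48 that the 12486 genes need not have. These counts are therefore a description only and are not comparable with the background shares. In size the calls ran from 0.62 to 7.03 on the log2 scale among the 12 and from 0.53 to 6.42 among the 21. Co-L 3 was the highest Co-L library in 4 of the 12 genes higher in Co, in 16 of the 21 lower in Co and in 11 of the 15 that did not pass. The same shares over all genes called higher or lower in Co are not given here, and the rule used the Co-L levels. Nothing is therefore read from this split.

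Both of the most abundant genes were higher in Co. ENSBTAG00000014835 averaged 8822 ± 3369 CPM in Co and 2215 ± 614 CPM in T (SD, n = 6 each). Its log2 difference of Co from T was 1.92 (SE 0.18, edgeR adjusted p = 4.3e-06). ENSBTAG00000013103 averaged 6929 ± 3289 CPM in Co, against 3591 ± 1172 CPM in T, and was called higher in Co by 0.86 on the log2 scale (SE 0.20, edgeR adjusted p = 0.0025). For the first gene the 6 Co libraries lay above all T libraries. For the second the Co-H and T ranges overlapped, and its T mean lay within the range of Co-H.

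Among the genes called higher in Co, the 2 with the strongest bias differed in their level in T. ENSBTAG00000032875 had 6 reads over all T libraries and stood at 0.744, 1.09 and 4.81 CPM in Co-H and 75.8, 9.54 and 10.6 CPM in Co-L. Its log2 difference of Co from T was 7.03 (SE 0.98, edgeR adjusted p = 7.5e-05). Co-L 1 was its highest library by far, and Co-H 3, labelled corpus luteum, was the highest of Co-H. Without Co-L 1 the log2 difference was 6.13. ENSBTAG00000007239 was present in every T library and more even in Co, at 48.4, 35.4 and 32.2 CPM in Co-H and 87.7, 106 and 121 CPM in Co-L, against 4.10, 4.52 and 3.18 CPM in T-H and 2.84, 1.99 and 5.56 CPM in T-L. Its log2 difference was 4.12 (SE 0.24, edgeR adjusted p = 1.1e-07), and every Co library lay above every T library.

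Among the genes called lower in Co, the 2 with the strongest bias differed in their level in Co. ENSBTAG00000004322 stood at 11.7, 18.2 and 9.22 CPM in Co-H and 88.7, 35.5 and 46.0 CPM in Co-L, against 7905, 1688 and 599 CPM in T-H and 655, 243 and 3906 CPM in T-L. The T libraries ranged over more than 10-fold, with T-H 1 and T-L 3 the highest, yet all lay above all Co libraries. Its log2 difference of Co from T was −6.42 (SE 0.88, edgeR adjusted p = 6.9e-05). ENSBTAG00000004948 stood at 1.02, 1.15 and 0.788 CPM in Co-H and 4.74, 3.61 and 8.48 CPM in Co-L, against 185, 170 and 132 CPM in T-H and 186, 173 and 285 CPM in T-L. Its log2 difference was −6.30 (SE 0.26, edgeR adjusted p = 1.0e-08). Among the 48 it also had the widest gap between Co-L and Co-H, at 3.15 times.

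**Figure D4:**
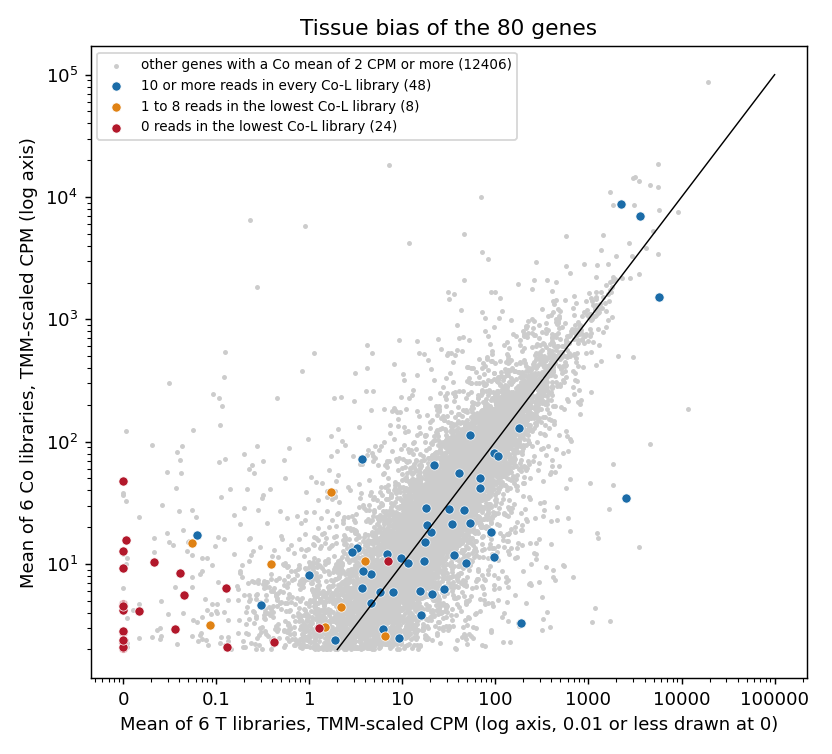
Mean of the 6 Co libraries (y axis) against the mean of the 6 T libraries (x axis), in TMM-scaled CPM on log axes, for the 80 genes coloured by the lowest Co-L read count and for the other genes with a Co mean of 2 CPM or more (grey), with the line of equal levels. The 48 genes with reads throughout Co-L lie on both sides of the line, and most of the 24 genes at 0 in a Co-L library lie at the left edge, near 0 in T.

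Of the 24 genes at 0 in a Co-L library none was called between the tissues by edgeR, which for most of them could not make a call. Of the 8 with 1 to 8 reads 1 was called lower in Co. For the 13 genes with 0 reads in T, 3 reads over the 6 T libraries (0.0360 CPM) served as the floor. Their Co means were at least 56.9-fold to 1339-fold above T on that floor, but come almost wholly from Co-L 3. The lower end follows from the minimum mean of 2 CPM over Co, so the range is a description only.

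Within T the high-fertility and low-fertility levels of the 48 genes scattered to both sides. The T-H mean was below the T-L mean in 26 of the 48, and their ratio had a median of 0.994, and quartiles of 0.771 and 1.18. Over the 12421 of the 12486 genes with reads in both T-H and T-L the median was 1.01. The quartiles there were 0.919 and 1.10, so the ratio was more spread among the 48. The overlap of T-H and T-L was a condition of choice, so these values are a description. It left out 11 genes that met the conditions on Co.

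The rule turned round, for genes higher in Co-H than in Co-L, found 20 genes, against 80 in the direction described here. Both counts rest on TMM scaling, and 24 of the 80 met the 1.5-fold condition as 0 against 0. With unadjusted totals 47 genes met the rule in the direction described here. The count for the rule turned round is given for TMM only, so the imbalance was not tested against scaling. None of the 20 had 0 reads in a Co library, and the lowest Co-H library of any of them held 25 reads. Their highest Co-H library was Co-H 2 in 10, Co-H 3 in 9 and Co-H 1 in 1. Set against these 20, the 48 genes with reads throughout Co-L are the closer counterpart, and the other 32 have none.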

How the data were processed

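The authors deposited raw read counts per cattle gene identifier, 1 file per library, per the file headers. Bowtie 0.12.2 was used, per the submitters' processing notes, where the build bosTau8 appears for 7 libraries and none for 5. The sources used here give no counting tool, annotation, strand setting or filter, so reads shared by near-identical or overlapping genes cannot be told apart. Whether counting sheep RNA on a cattle annotation lowered the counts of diverged genes was not tested.

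Groups came from the titles. One file has a blank line, and in another the header and the first gene share a line, which was split. Genes with a summed count of 120 or more were scaled by TMM and fitted in R 4.3.3 with edgeR 4.0.16, with 1 mean per group over all 12 libraries. The quasi-likelihood test compared Co with T, with Benjamini-Hochberg adjustment and a threshold of 0.05, and was tested on simulated data. Where a gene was at 0, 3 reads served as the floor, which covers counting error only. Named genes were the first 1 or 2 by abundance, gap, tissue bias, Co-L spread and distance from the 1.5-fold condition. The members, lists and tests were chosen with earlier results of these data known. The 18 gene lists prepared could not be used, as no gene could be named. Replicates differed by more than sampling noise (chi-square per degree of freedom 19.4 to 145). Alternatives were RLE, upper-quartile and no scaling, DESeq2 1.42.0, limma-voom 3.58.1, other filters and gaps, a replicate block and leaving out each library.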

Additional observations from a re-analysis of the deposited data

How the results depend on the processing

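The number of genes meeting the rule was 75 to 77 with upper-quartile or RLE scaling, 57 with filterByExpr and 73 with no count filter. It was 47 with unadjusted totals, 202 and 38 with gaps of 1.3 and 2, and 62 to 278 with each library left out. With at least 10 reads in every Co-L library, a condition chosen after the data were seen, it was 48, which became 19 with unadjusted totals and 34 to 242 with each library left out. Of the 80 genes 31 to 37 were called between the tissues under the 7 other fits and 31 to 38 with each library left out, and the tissue calls of the 3 most abundant genes and of the 4 called genes with the strongest bias kept their direction and their side of the threshold in the fits that gave them a p. DESeq2 gave ENSBTAG00000032875, and 27 of the 80 in all, no adjusted p. The median log2 difference of Co from T was −0.52 with filterByExpr, which kept 56 of the 80, and −0.68 to 0.52 with each library left out. The median ratio of highest to lowest Co-L library was 1.18 without Co-L 3, over the 54 genes still tested, and up to 2.24 without another Co-L library. Libraries with equal replicate numbers were at most weakly related (r of deviations −0.29 to 0.23, over 0.1 in 3 of 18 pairs). With 3 libraries per group this cannot exclude pairing, such as Co and T libraries from the same animal. With the replicate number as a block 31 of the 80 were called, 12 higher and 19 lower in Co. For genes at 0 in Co-H, depth gives only the upper limit of 0.0733 CPM.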
